A study of Ovis aries with 16 samples.

Results

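Liver and skeletal muscle of the same 4 fasted adult ewes were compared to describe which genes mark each tissue in sheep. The 4 ewes were the control group of a study of prenatal exposure to bisphenol A (BPA), a plasticizer with oestrogen-like activity. Their Suffolk mothers had received subcutaneous corn oil daily from gestation day 30 to day 90, and the mothers of the other 4 ewes 0.5 mg/kg BPA per day in the same oil. All 8 daughters had reached about 21 months, were fasted for 48 hours and were in their late follicular phase. Tissue was taken 24 hours after the second of a pair of 10 mg prostaglandin F2α injections given 11 days apart. The left liver lobe was sampled at its tip and muscle from the vastus lateralis of the thigh, so each tissue came from 1 site. The comparison used 8 of the 16 libraries, 4 livers and 4 muscles paired by sheep number (902, 908, 924 and 928), and each replicate was a separate animal. Of the 28524 genes in the table, 15910 had a mean normalized read count of at least 10 over these 8 libraries and were tested.

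Liver is built mainly of hepatocytes, which secrete most plasma proteins, make bile acids and urea, store glycogen and release glucose into the blood. In ruminants little glucose is absorbed from the gut, and the liver makes it from propionate, lactate, glycerol and amino acids at all times. Skeletal muscle fibres are multinucleated cells packed with contractile filaments and calcium stores, which burn glucose, fatty acids and ketone bodies and release no free glucose. Many enzymes of shared pathways are encoded by separate genes in the 2 tissues.

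Control liver libraries held 4391896 to 19283871 whole reads and control muscle libraries 16164635 to 28540671. Titin (TTN) alone took 15.5 to 21.2% of the reads in each muscle, and the 10 leading genes together took 35.2 to 42.2%, against 6.89 to 16.8% in liver. Values below are the deposited normalized read counts, given for each gene in the order of sheep 902, 908, 924 and 928. A log2 difference is the mean of liver minus muscle within an animal on the log2(value + 1) scale, so it is positive for genes higher in liver, and its ± is the standard error from limma over 4 animals. No transcript lengths were used, so levels are compared between libraries and not between genes.

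The liver of sheep 902 stood apart from the other 3 livers. Its mean correlation with them over the tested genes was 0.733, while each of the others reached 0.896 or 0.897 and each muscle 0.977 to 0.981. It was also the shallowest of the 8 libraries, at 4391896 reads. The summed count of 13 hepatocyte markers was 58496 in this liver, against 1214430 to 1317820 in the other livers and 8938 to 14495 in muscle. The summed count of 16 fibroblast and stellate cell markers went the other way, at 123141 against 11163 to 13037. COL1A1, the main chain of type I collagen, was at 43399 in this liver and at 1046 to 1956 in the others. In bulk tissue, fewer cells of a type and less RNA per cell cannot be told apart. Results are given with all 4 animals and, where a call or direction changes, also without sheep 902. Of the 159 genes named below that were called and tested in both fits, 49 had differences that moved by over 1.5-fold without this sheep, 44 of them away from 0.

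The 6 markers followed their labels in all 8 libraries. Albumin (ALB), the main plasma protein, was at 10447, 677303, 739640 and 702068 in liver and 7747, 4655, 4662 and 4401 in muscle (log2 difference 5.56 ± 1.32, limma adjusted p = 0.0181; without sheep 902, 7.27). Transthyretin (TTR), a carrier of thyroid hormone, was at 358, 20911, 22925 and 25115 in liver and 161, 106, 79.8 and 108 in muscle (log2 difference 6.19 ± 1.28, limma adjusted p = 0.0113; 7.87 without 902). CYP2E1, an ethanol-oxidizing cytochrome P450, was at 5943, 113952, 110128 and 174320 in liver and 1060.5, 682, 448 and 459 in muscle (log2 difference 6.59 ± 1.06, limma adjusted p = 0.00494; 7.96 without 902). The groups did not overlap for any of these 3 genes, but the liver of sheep 902 lay nearer to muscle than to the other livers for each of them on the log2 scale. The calls of ALB and TTR were lost when any 1 of the other sheep was left out in place of 902, with limma adjusted p values of 0.0514 to 0.0789. Creatine kinase (CKM), which regenerates ATP in contracting fibres, was at 3.77, 0, 2.84 and 0 in liver and 376880, 339834, 346150 and 411785 in muscle (log2 difference -17.44 ± 0.49, limma adjusted p = 3.82e-05). Skeletal α-actin (ACTA1) was at 18.8, 0.688, 1.42 and 1.34 in liver and 876888, 866623, 967867 and 1162090 in muscle (log2 difference -17.98 ± 0.66, limma adjusted p = 6.68e-05). The fast regulatory light chain MYLPF was at 5.65, 0.688, 0 and 0 in liver and 100060, 83244, 96128 and 99986 in muscle (log2 difference -15.66 ± 0.50, limma adjusted p = 5.17e-05). Muscle markers were thus nearly absent from all 4 livers, with 6 CKM, 15 ACTA1 and 4 MYLPF reads over the group. Liver markers were not at the floor in muscle: over the 13 hepatocyte markers the muscle mean was a median of 0.759% of the mean of the other 3 livers, and muscle 902 was the highest muscle for 12 of 13. The same share for the muscle fibre markers in those livers was 0.000727%. The source of the hepatocyte transcripts in muscle was not tested.

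**Figure D1:**
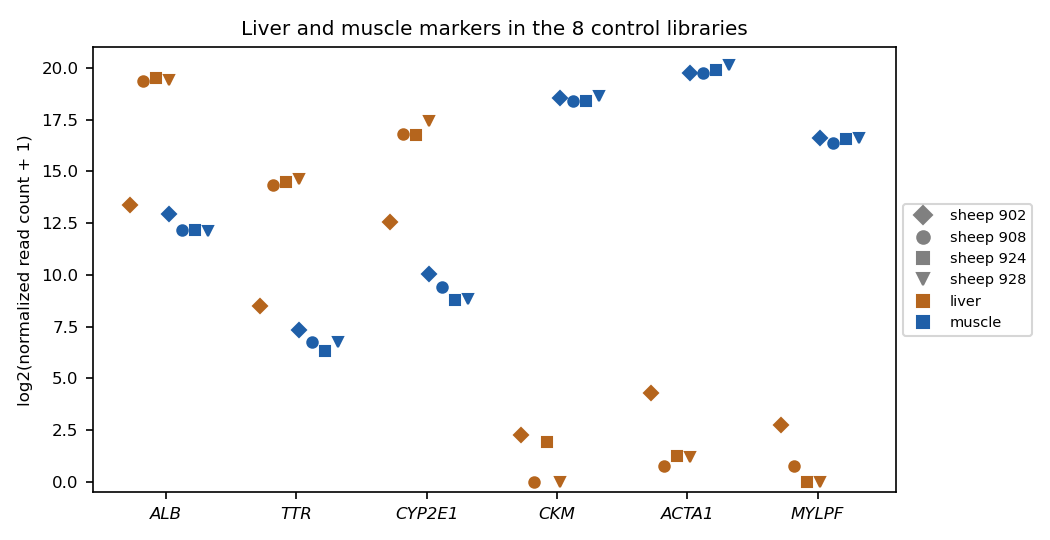
Normalized read counts of 6 tissue markers in the 8 control libraries (y axis, log2(count + 1); symbols give the sheep, colours the tissue). Liver 902 (orange diamond) is the lowest liver for ALB, TTR and CYP2E1, at 10447 for ALB, yet lies above every muscle library.

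Of the 15910 genes, 4330 (27.2%) were higher in liver and 4152 (26.1%) higher in muscle at an adjusted p of 0.05 (limma with animal as a block, Benjamini-Hochberg). Liver genes thus made up 51.05% of the calls. Scaling each library to its total instead shifted the median log2 difference over genes by 0.881 toward liver, since the normalized totals ran from 19681100 to 23336100 in muscle and from 8275900 to 12941200 in liver. The calls then split into 7858 (49.4%) higher in liver and 1940 (12.2%) higher in muscle, so the balance of directions rests on the scaling, and liver genes made up 80.2% of the calls. At a difference of at least 4-fold, 2266 genes were higher in liver and 1714 in muscle. The extremes were not symmetric. A log2 difference of 10 or more was reached by 84 genes in muscle and by 0 in liver. In muscle, listed genes called higher in liver lay at list medians of 0.702% (lipoprotein genes) to 1.20% (liver factors) of livers other than 902. In those livers, listed genes called higher in muscle lay at list medians of 0.000727% (fibre markers) to 0.778% (muscle factors) of muscle. The part of these levels in the extremes was not tested. Without sheep 902, 5568 of 15491 genes (35.9%) were higher in liver and 5823 (37.6%) in muscle. Of the 8482 genes called with all 4 animals, 8388 were called in the same direction without this sheep and 0 in the opposite one.

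Among called genes with a symbol that went the same way in all 4 animals, the 10 with the largest liver excess ran from APOA5 (7.34) to SOAT2 (7.66), which esterifies cholesterol. SOAT2 was at 1641, 2481, 3135 and 2280.4 in liver and 15.8, 7.58, 9.39 and 10.6 in muscle (limma adjusted p = 9.68e-05). The others were the cardiac and liver factor GATA4 (7.65), the folate enzyme FTCD (7.63), the peroxisomal D-amino acid oxidase DAO (7.56), the kinase SGK2 (7.53), the cubilin partner AMN (7.51), protein C (PROC, 7.47), the carboxylesterase CES3 (7.36) and the Golgi transport gene GOLT1A (7.35). None of the 10 overlapped between tissues, but they had been picked for large differences. Lack of overlap was common over the 15910 tested genes, with 4638 higher in every liver than in any muscle and 4601 the reverse. At the muscle end stood the fast myosin heavy chains MYH1 (-18.00) and MYH2 (-16.25), ACTA1 and CKM, titin (-16.62), the calcium pump ATP2A1 (-16.38), myoglobin (MB, -16.01), MYLPF, fast troponin C (TNNC2, -15.61) and the actin-binding XIRP2 (-15.30), which had 1 liver read. MYH1 was at 33.9, 2.06, 2.84 and 0.671 in liver and 1158200, 1384270, 1391790 and 1469480 in muscle.

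In the 4 BPA ewes, 4861 of 15835 genes (30.7%) were higher in liver and 4896 (30.9%) higher in muscle. Of the control calls, 8354 were tested there, 6771 were called in the same direction and 26 in the opposite one. These make up 81.1% of the control calls tested and 71.8% of the BPA calls tested. A test of the difference between both tissue differences passed for 0 of 15373 genes in limma (smallest adjusted p = 0.246), with 2462 at an unadjusted p under 0.05. The BPA livers ran from 4664209 to 17923942 reads.

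Most gene lists described below split the same way in the BPA ewes. Liver-enriched factors were higher in liver for 24 of 26 there and muscle factors higher in muscle for 27 of 30. Plasma carriers were higher in liver for 28 of 28, coagulation factors for 22 of 22 and urea cycle and amino acid genes for 40 of 41. Oxidative phosphorylation subunits were higher in muscle for 44 of 45. Matrix genes gave 3 higher in liver and 19 in muscle of 32, and fibroblast markers 4 and 11 of 16. No list was tested for a difference between the ewes. Wherever limma called 0 genes of a list in a direction below, edgeR also called 0 in control ewes, except for 1 position gene higher in liver.

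Transcription factors separated the tissues. List counts with all 4 animals, here and below, stand beside 27.2% of all tested genes higher in liver and 26.1% in muscle. Of 26 liver-enriched factors and nuclear receptors, 22 were higher in liver, 1 was higher in muscle and 3 did not pass, with a median log2 difference of 5.25 against 0.04 over all tested genes. HNF4A, the nuclear receptor at the centre of the hepatocyte network, was at 1809, 7052, 9155 and 8628 in liver and 95, 39.6, 46.9 and 48.2 in muscle (log2 difference 6.68 ± 0.63, limma adjusted p = 0.000897). FOXA2, a forkhead pioneer factor that opens liver enhancers, was at 109, 516, 799 and 419 and 6.09, 5.06, 1.17 and 0.818 (log2 difference 6.69 ± 0.79, limma adjusted p = 0.00184). For both factors the liver of sheep 902 was the lowest liver and still above every muscle. Its relatives went the same way, FOXA1 at 6.16 and FOXA3 at 5.26, as did the onecut factors ONECUT1 (7.0) and ONECUT2 (6.45).

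Receptors that sense bile acids and foreign compounds were in the same group. The pregnane X receptor NR1I2 was at 2791, 3569.8, 4467 and 3475 in liver and 34.1, 20.2, 24.6 and 13.1 in muscle (log2 difference 7.28 ± 0.29, limma adjusted p = 8.95e-05). The bile acid receptor NR1H4 differed by 6.25, its target repressor NR0B2 by 5.94, the constitutive androstane receptor NR1I3 by 5.16 and the phospholipid-binding receptor NR5A2 by 3.32. CREB3L3, a membrane-bound factor that drives FGF21 and apolipoprotein genes in fasting, was at 4799, 11829.5, 10616 and 7473 in liver and 80.4, 52.3, 42.2 and 45.8 in muscle (log2 difference 7.23 ± 0.38, limma adjusted p = 0.000169). The groups were apart for each of these 6 genes.

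Some factors of the same list had high counts in both tissues and behaved otherwise. PPARA, which drives fatty acid oxidation and ketone body synthesis, was at 1300.2, 5951, 3986 and 3849 in liver and 1765, 1300.4, 1272 and 1518 in muscle. The liver of sheep 902 fell among the muscles, and the difference did not pass with 4 animals (log2 difference 1.19 ± 0.45, limma adjusted p = 0.076) but did without that sheep (log2 difference 1.73 ± 0.17, limma adjusted p = 0.000144). The oxysterol receptor NR1H3 gave the same pattern (1.15, limma adjusted p = 0.0746; 1.70, 1.48e-05 without 902). Their common partner RXRA was at 3166, 6129, 6133 and 6391 in liver and 5131, 5349, 4825 and 5062 in muscle (log2 difference 0.05 ± 0.25, limma adjusted p = 0.89; 0.29, adjusted p = 0.0332 without 902). CEBPB, an acute-phase and differentiation factor, was the 1 listed liver factor higher in muscle, at 746, 3237, 1823 and 1611 against 2711, 3653, 3664 and 3639 (log2 difference -1.05 ± 0.30, limma adjusted p = 0.0318). Sheep 908 had the highest liver value of CEBPB, above muscle 902, so the groups overlapped although muscle was higher within each of the 4 animals. The CEBPB call was lost without sheep 924 or 928 (limma adjusted p = 0.105 and 0.116) and under scaling to library totals (-0.16, adjusted p = 0.592), and edgeR gave an adjusted p of 0.0522.

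Of 31 myogenic and muscle-enriched factors tested, 27 were higher in muscle, 0 were higher in liver and 4 did not pass, with a median of -5.30. MYOD1, the bHLH factor that commits cells to muscle, was at 0, 0.688, 0 and 0 in liver and 351, 462, 439 and 282 in muscle, a ratio of 1859 with a 95% counting interval of 333 to 73465 that rests on 1 liver read. Myogenin (MYOG), which drives fusion into fibres, was at 1.88, 0, 0 and 0 and 293, 309, 313 and 226, also with 1 liver read. TBX15, a T-box factor of fast glycolytic fibres, had 0 reads in the 4 livers and 3863, 3409, 3854 and 4245 in muscle, at least 6253-fold higher. This bound and those below set the tissue without reads to 3 reads over its 4 libraries, and, like the intervals, cover counting error only. The fitted log2 difference of such genes depends on the added 1 and is no bound.

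MEF2C, a MADS-box factor of fibre genes, was at 307, 117, 161 and 134 in liver and 4618, 5532, 6315 and 4405 in muscle (log2 difference -4.94 ± 0.30, limma adjusted p = 0.000259). Its relatives differed less, MEF2D by -2.79 and MEF2A by -1.15 (-0.25 and not called under scaling to library totals), and the Hippo-pathway factor TEAD1 by -3.04. SIX4, a homeobox factor of muscle development, was at 665, 3.44, 2.13 and 2.68 in liver and 743, 854, 857 and 786 in muscle (log2 difference -5.90 ± 1.45, limma adjusted p = 0.0205). For SIX4 the liver of sheep 902 came close to the muscles while the other livers were near 0, and without it the difference was -7.81. Without any 1 of the other sheep the SIX4 call was lost, at limma adjusted p values of 0.0819 to 0.0863. Satellite cells, the resident muscle stem cells, were represented by PAX7, with 0 liver reads and 31.7, 31.2, 95 and 56.4 in muscle (at least 84.9-fold higher), and by MYF5 at 20.7, 21.9, 30.5 and 30.3 in muscle with 1 liver read.

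Metabolic regulators on the muscle list did not all follow it. PPARGC1A, a coactivator that raises mitochondrial gene expression, was at 268, 589.7, 553 and 638 in liver and 436, 392, 570.3 and 646 in muscle (log2 difference -0.04 ± 0.24, limma adjusted p = 0.889; 0.85, adjusted p = 0.013, under scaling to library totals). KLF15, a glucocorticoid-responsive regulator of amino acid breakdown, was at 147, 1712, 1444 and 1525 in liver and 410.3, 455, 424 and 384 in muscle. It did not pass with 4 animals (log2 difference 1.05 ± 0.65, limma adjusted p = 0.225) and was higher in liver without sheep 902 (log2 difference 1.89 ± 0.09, limma adjusted p = 6.69e-06), whose liver was the only one below the muscles. ESRRA, a partner of PPARGC1A, did not pass with 4 animals (-1.32, limma adjusted p = 0.0886) and was higher in muscle without 902 (-0.65, adjusted p = 0.00348). The remaining member that did not pass, MSC, a bHLH repressor, was under 20 in every library.

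**Figure D2:**
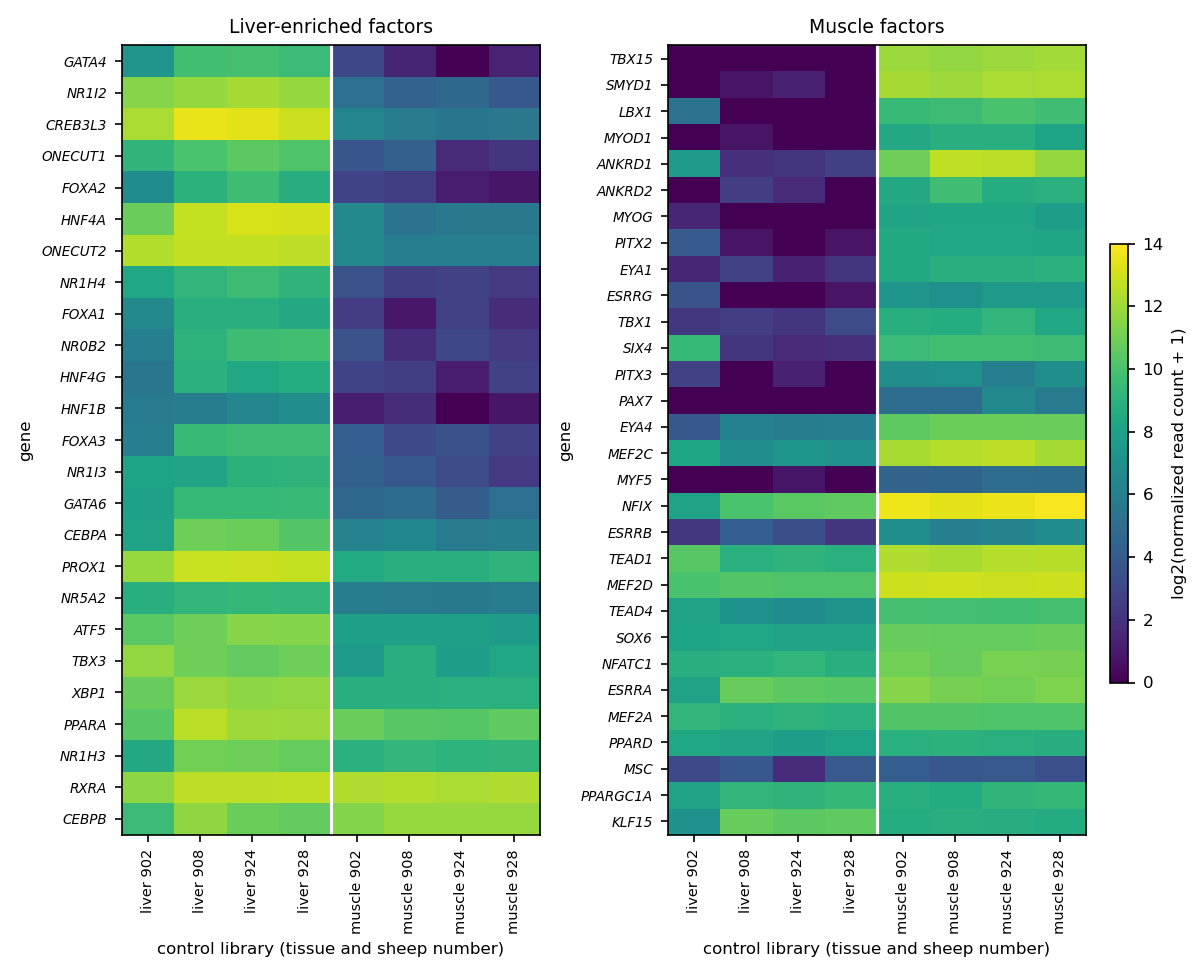
Normalized read counts of liver-enriched (left) and muscle (right) transcription factors, 1 row a gene for most tested members and 1 column a control library, coloured by log2(count + 1) from 0 to 14 and ordered by log2 difference. The white line parts livers from muscles; TBX15 is at 0 in all 4 livers and MYOD1 in 3 of 4.

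Homeobox genes that record position along the body were called in one direction only by limma. Of 42 position genes found in the table, 27 were tested, 17 were higher in muscle and 0 in liver. The shares over all tested genes were 26.1% in muscle and 27.2% in liver. Without sheep 902, 23 position genes passed the filter, of which 21 were higher in muscle and 0 in liver. HOXC10, a hindlimb and lumbar gene, had 0 reads in all 4 livers and 627, 640.5, 601 and 647 in muscle, at least 1027-fold higher. HOXC9 and HOXC8 also had 0 liver reads, with bounds of 132-fold and 54.2-fold. PITX1, a hindlimb homeobox gene, was at 3.77, 0, 0 and 0 in liver and 40.2, 53.9, 41.1 and 28.6 in muscle, a ratio of 99.8 (counting interval 27.2 to 831) that rests on 2 liver reads. HOXA9 was at 166, 0, 0 and 0 in liver and 627, 532, 703 and 595 in muscle (log2 difference -7.41 ± 1.40, limma adjusted p = 0.0084).

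Again the liver of sheep 902 differed from the other livers. Among the livers, high values were seen only there for HOXA10 (383, others 0 to 0.711), HOXA11 (359.9, others 0), HOXD10 (219, others 0) and HOXD11 (207, others 0). HOXA11, HOXD10 and HOXD11 were at most 5.06 in any muscle, so high values were seen in this 1 library. HOXD11 did not pass in limma (1.93, adjusted p = 0.36) but was called higher in liver by edgeR (8.25, adjusted p = 0.0315). The fibroblast marker sum was highest in the same library, and its part in these values was not tested. At the 3′ end of the clusters the tissues could be closer. HOXB3 was at 13.2, 35.1, 20.6 and 16.1 in liver and 25.6, 32.9, 29.3 and 19.6 in muscle (log2 difference -0.39 ± 0.30, limma adjusted p = 0.322), and overlapped between tissues. Anterior genes were not all alike, since HOXA3 (-2.44) and HOXA4 (-3.55) were higher in muscle.

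**Figure D3:**
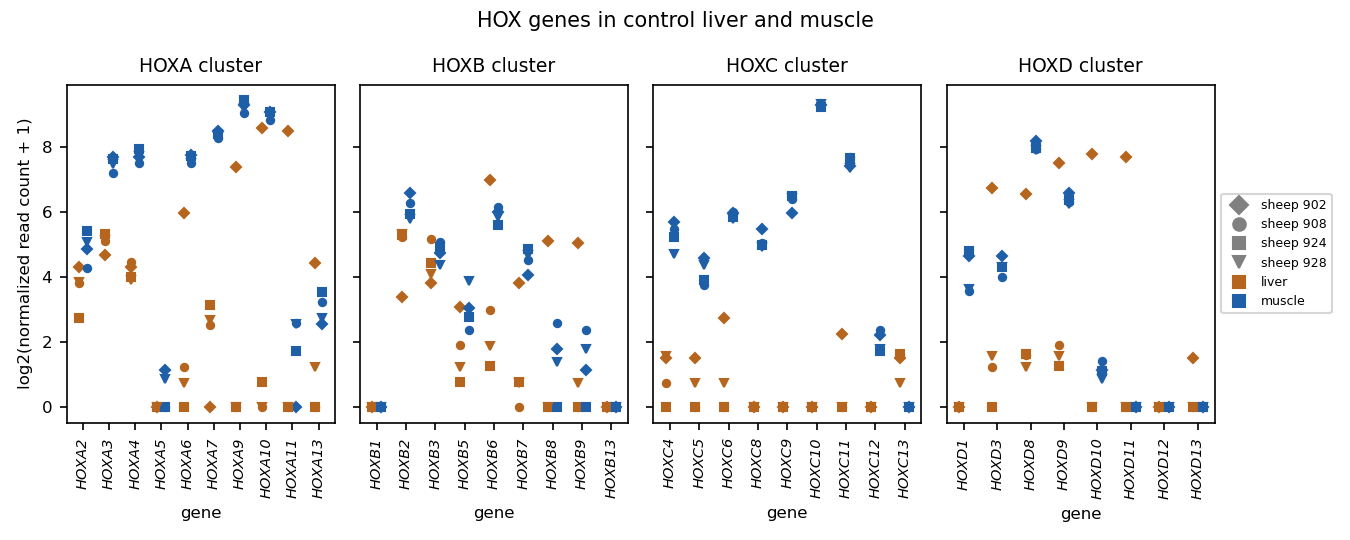
Normalized read counts of most HOX genes found in the table, by cluster and in numerical order (y axis, log2(count + 1); symbols give the sheep, colours the tissue). Livers other than 902 (orange, diamond for 902) have counts, before the log, of 4.82 to 7.82 for HOXA7 and of 0 for HOXC8, HOXC9 and HOXC10. The 4 muscles express all of these genes.

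Pairs of genes for the same reaction were expressed in different proportions in the 2 tissues. For 32 enzyme, transporter or protein pairs listed as a liver form and a muscle form, both were found for 29. The log2 ratio of liver form to muscle form was computed in each library, and its shift is the ratio in liver minus that in muscle of the same animal, in which transcript length cancels and, apart from the added 1, library scaling too. The shift was positive in all 4 animals, with no overlap of the ratios, for 28 of 29 pairs, and its median over pairs was 9.19. With 4 animals the exact two-sided sign-flip permutation test cannot go below p = 0.13, the value of each of these 28 pairs. In limma both forms were tested for 28 pairs, and in 20 the liver form was higher in liver and the muscle form higher in muscle. Over all 15910 tested genes, 27.2% were higher in liver and 26.1% in muscle, and 4638 and 4601 did not overlap. The pairs had been listed as known liver and muscle forms, with earlier results of these data known. The direction of the shifts is therefore no independent result.

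Glycogen handling switched at nearly every step. For glycogen phosphorylase, which releases glucose 1-phosphate from glycogen, PYGL was at 1835, 5713, 4989 and 5881 in liver and 241, 285, 243 and 338 in muscle. PYGM was at 30.1, 11.7, 22 and 16.8 in liver and 145946, 143321, 116479 and 166908 in muscle. The shift was 16.72 ± 1.16 (SD, n = 4). Glycogen synthase shifted from GYS1 to GYS2 by 10.92 ± 1.52, glycogenin, the primer of the granule, from GYG1 to GYG2 by 7.46 ± 0.20, and the α subunit of phosphorylase kinase from PHKA1 to PHKA2 by 9.30 ± 1.16. Of the protein phosphatase subunits that dock on glycogen, PPP1R3A was at 8147, 7927, 9118 and 8590.2 in muscle with 1 liver read, while PPP1R3B was at 559.7, 2957, 4927 and 3238 in liver and 671, 431, 388 and 527 in muscle (log2 difference 2.20 ± 0.65, limma adjusted p = 0.0374). Muscle 902 exceeded liver 902 for PPP1R3B, so here only the muscle form separated the tissues completely. The PPP1R3B call was lost without any 1 of the other sheep, at a limma adjusted p of 0.13 in each case.

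Glycolysis held further such pairs. For pyruvate kinase, PKLR was at 279, 626, 829 and 969.7 in liver and 9.74, 4.21, 10.6 and 4.91 in muscle. PKM was at 3094, 312, 321 and 468 in liver and 37107, 20781, 17625 and 32357 in muscle, a shift of 11.66 ± 2.34. Liver 902 was the lowest liver for PKLR and the highest for PKM. Enolase shifted from ENO3 to ENO1 by 11.26 ± 0.80, phosphofructokinase from PFKM to PFKL by 8.19 ± 0.44 and phosphoglycerate mutase from PGAM2 to PGAM1 by 9.19 ± 0.58. The liver forms PFKL (1.16) and PGAM1 (0.76) were only moderately higher in liver, and most of these 2 shifts came from the muscle form. Without 1 of the sheep 908, 924 or 928 the PGAM1 call was lost (limma adjusted p 0.0815 to 0.0892), as was that of PFKL without 908 or 928 (0.0592 and 0.0583). HK2, the insulin-responsive hexokinase of muscle, was at 84.8, 13.1, 16.4 and 14.1 in liver and 789, 460.1, 604 and 398 in muscle (log2 difference -4.52 ± 0.37, limma adjusted p = 0.00062).

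Transport and fat handling were also split. The high-capacity glucose transporter SLC2A2 was at 220.5, 1624, 1805 and 1923 in liver and 17, 9.27, 7.04 and 16.4 in muscle (log2 difference 6.38 ± 0.73, limma adjusted p = 0.00164). The insulin-responsive SLC2A4 was at 0, 57.8, 66.8 and 53.7 in liver and 1778, 1799, 1143 and 1486 in muscle (log2 difference -6.14 ± 1.19, limma adjusted p = 0.00909; -4.59 without 902). Liver 902 had 0 reads of SLC2A4, where the other livers reached 53.7 to 66.8. The fatty acid binding protein FABP1 was at 458, 6065, 8622 and 12633 in liver and 52.4, 37.9, 35.2 and 44.2 in muscle. FABP3 was at 11.3, 14.4, 12.8 and 17.4 in liver and 3966, 2560.3, 1979.6 and 3453 in muscle, and the shift was 14.21 ± 1.89. Carnitine palmitoyltransferase 1, the gate of mitochondrial fatty acid entry, shifted from CPT1B to CPT1A by 6.99 ± 0.29. Fructose bisphosphatase shifted from FBP2 to FBP1 by 13.06 ± 2.46 and AMP deaminase from AMPD1 to AMPD2 by 15.93 ± 0.65, where AMPD1 had 1 liver read.

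Shifts without opposite genes were seen too. Arginase 1 (ARG1), the last step of the urea cycle, was higher in liver (5.41), while ARG2 did not pass (log2 difference 0.04 ± 0.41, limma adjusted p = 0.941). The calcium pumps ATP2A2 and ATP2A1 were both higher in muscle, with log2 differences of -3.87 and -16.38, so that the shift of 12.50 ± 0.36 came from the gap between them. Translation elongation factor 1α shifted from EEF1A2, at 62143, 70544, 61913 and 80940.1 in muscle and 1.88, 2.75, 0 and 1.34 in liver, to EEF1A1 by 17.08 ± 1.25. The exception to the pattern was the catalytic subunit of AMP-activated kinase, the cell's energy sensor. PRKAA1 (-1.45) and PRKAA2 (-1.95) were both higher in muscle, and their shift of 0.49 ± 0.46 was positive in 3 of 4 animals (exact permutation p = 0.25, n = 4, two-sided). PRKAA1 was not called under scaling to library totals (-0.56, limma adjusted p = 0.0502). The smallest shift in an animal among the other pairs was 1.10, for arginase in sheep 902.

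**Figure D4:**
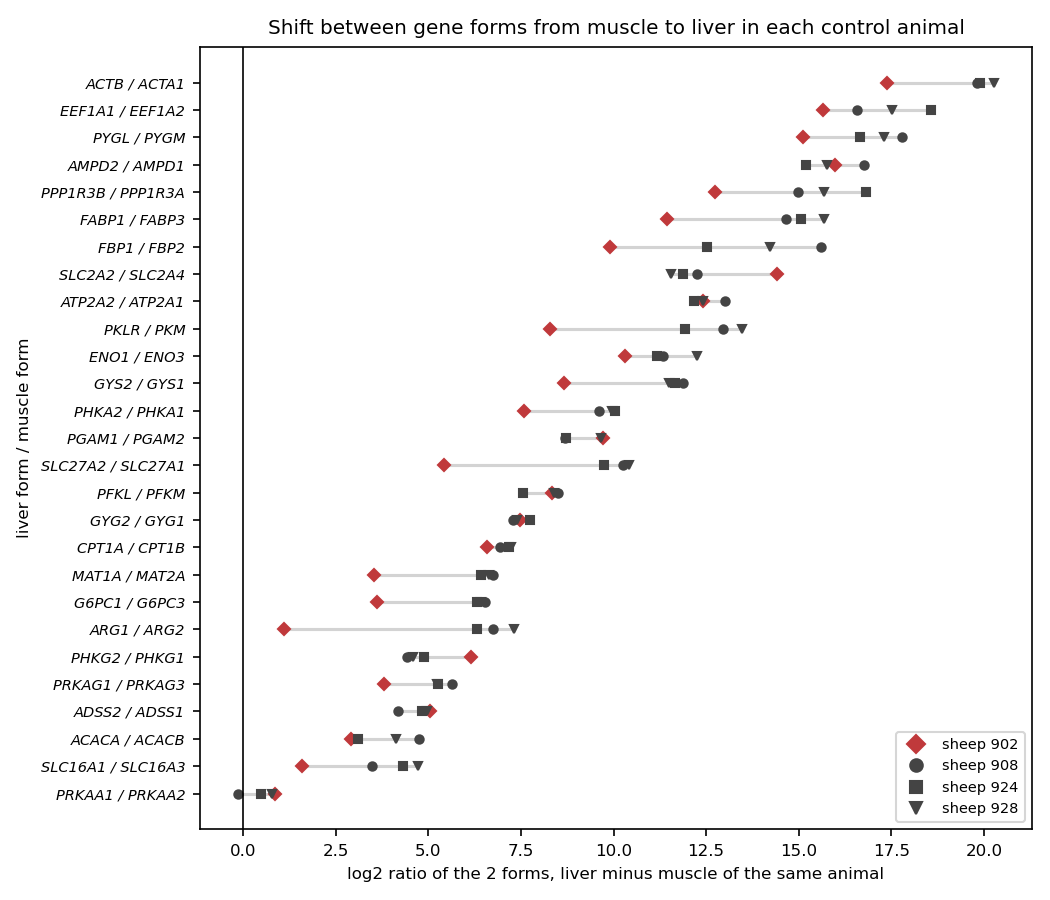
Shift of the log2 ratio of liver form to muscle form, liver minus muscle of the same animal, for 27 of the 29 pairs (x axis; 1 symbol per sheep, sheep 902 in red, grey lines span the 4 animals). All points lie right of 0 except 1 animal for PRKAA1 / PRKAA2, and ACTB / ACTA1 is the largest at 19.35 ± 1.33.

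Metabolic genes divided by pathway. In glucose synthesis, 10 of 17 genes were higher in liver and 3 in muscle, beside 27.2% and 26.1% over all tested genes. PCK1, the cytosolic enzyme that turns oxaloacetate into phosphoenolpyruvate, was at 14792, 23866, 20757 and 26689.9 in liver and 237, 119, 108 and 95.7 in muscle (log2 difference 7.32 ± 0.38, limma adjusted p = 0.000169). G6PC1, which frees glucose from its phosphate in the last step, was at 844, 5599, 5192 and 5404 in liver and 75.5, 31.2, 30.5 and 31.1 in muscle (log2 difference 6.42 ± 0.75, limma adjusted p = 0.00177). Pyruvate carboxylase (PC) was at 15099, 39633, 32251 and 25391 and 793, 491, 488 and 486 (log2 difference 5.58 ± 0.38, limma adjusted p = 0.000355). The groups were apart for all 3. On the route of propionate, PCCA was higher in liver (2.66), while PCCB (0.64, limma adjusted p = 0.38) and MCEE (1.71, 0.11) did not pass. Both were called higher in liver without sheep 902 (1.35 and 2.68), under scaling to library totals and with array weights, and MCEE also in DESeq2. The alanine aminotransferases GPT (-3.19) and GPT2 (-2.07), which pass nitrogen between alanine and glutamate, were higher in muscle, but GPT2 was not called without sheep 924 or 928 (limma adjusted p = 0.103 and 0.0918) or under scaling to library totals (0.0888). The mitochondrial 2-oxoglutarate carrier SLC25A11 was the third, at -3.00.

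Glycolysis held 12 of 21 genes higher in muscle and 7 in liver, and glycogen metabolism 15 of 23 in muscle and 5 in liver. OXCT1, needed to use ketone bodies, was at 543, 79.8, 56.9 and 87.2 in liver and 2067, 2460.02, 2609.7 and 2794 in muscle (log2 difference -4.33 ± 0.63, limma adjusted p = 0.00342). The groups did not overlap. The mitochondrial 3-hydroxybutyrate dehydrogenase BDH1 was at 84.8, 0.688, 0.711 and 2.68 in liver and 48.7, 35.4, 42.2 and 71.1 in muscle, so that 3 of 4 livers lay near 0 (log2 difference -3.15 ± 1.04, limma adjusted p = 0.0502; -4.46, adjusted p = 6.47e-05 without 902). Its cytosolic relative BDH2 was higher in liver (0.95; limma adjusted p = 0.0509 without sheep 924). Of 8 tested ketone body genes, 2 were higher in liver and 1 in muscle, against 5 and 3 without sheep 902 and 4 and 1 under scaling to library totals. Over all tested genes the shares were 27.2% in liver and 26.1% in muscle, or 35.9% and 37.6% without sheep 902.

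Genes of fat oxidation were listed by organelle, and no test compared the lists. In peroxisomes 10 of 12 genes were higher in liver and 1 in muscle (11 and 1 without sheep 902). ACOX2, a bile-acid intermediate oxidase, was at 1163, 9947, 10933 and 10502 in liver and 84, 52.3, 45.8 and 48.2 in muscle (log2 difference 6.73 ± 0.76, limma adjusted p = 0.00156). In mitochondria only 4 of 23 genes were higher in liver and 2 in muscle with all animals, beside a background of 27.2% and 26.1%. Without sheep 902, 14 of 22 were higher in liver and 6 in muscle, and under scaling to library totals 11 and 1. ACSL5, which activates fatty acids, and CPT1A were higher in liver (5.10 and 3.25), and HADHB, a subunit of the trifunctional protein, in muscle (-1.95). HADHB was not called under scaling to library totals (-1.06), in edgeR (adjusted p = 0.0613) or without any 1 of sheep 908, 924 and 928 (limma adjusted p 0.0686 to 0.0903), and without sheep 902 its difference was -1.23.

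Fat synthesis in liver was uneven. Of 17 genes 11 were higher in liver and 3 in muscle, beside 27.2% and 26.1% over all tested genes. MLXIPL, a glucose-sensing factor, was at 4261, 2253, 3123 and 2546 in liver and 80.4, 54.8, 48.1 and 46.6 in muscle (log2 difference 5.70 ± 0.17, limma adjusted p = 4.08e-05). FASN, the fatty acid synthase, was at 1289, 427, 554 and 562 in liver and 1006, 995, 950.5 and 932 in muscle (log2 difference -0.59 ± 0.28, limma adjusted p = 0.134). Liver 902 had the highest FASN value and the other 3 livers lay below every muscle, so that muscle was higher without sheep 902 (-0.91, limma adjusted p = 0.000726). ME1, which supplies NADPH for synthesis, was higher in muscle (-3.94), as were ACACB (-2.75), whose product restrains CPT1, and the phosphatidate phosphatase LPIN1 (-4.93).

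Cholesterol genes were higher in liver for 17 of 21 and in muscle for 1, beside 27.2% and 26.1% over all tested genes. FDFT1, squalene synthase, was the exception at 876, 1192, 1359.9 and 1503 in liver and 2925, 2852, 3425 and 3369.5 in muscle (log2 difference -1.37 ± 0.17, limma adjusted p = 0.00204). The next enzyme of the same path, SQLE, was higher in liver by 4.64. All 10 tested genes of bile acid synthesis and transport were higher in liver, among them the export pump ABCB11 (5.83) and the phospholipid flippase ABCB4 (6.64). Of 41 genes of the urea cycle and amino acid breakdown, 38 were higher in liver and 0 in muscle, and 20 of 22 cytochrome P450 and conjugating genes. Tryptophan dioxygenase TDO2 (6.34) and FTCD were among those with the smallest p values. The exceptions AASS, of lysine breakdown (-0.50, limma adjusted p = 0.279), PRODH, of proline breakdown (0.84, 0.257), and SDS, serine dehydratase (2.37, 0.0519), did not pass. PRODH and SDS were higher in liver without sheep 902 (limma adjusted p = 0.00175 and 0.0075) and under scaling to library totals, and SDS also without the block and in DESeq2. Neither did ALDH2, the mitochondrial acetaldehyde dehydrogenase, at 1116, 9996, 9194 and 8905 in liver and 7495, 6735, 10919 and 10323 in muscle.

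Mitochondrial energy genes went the other way. Of 45 tested nuclear-encoded subunits of oxidative phosphorylation, 42 were higher in muscle and 0 in liver, with a median of -2.20 (34 and 0 under scaling to library totals). The 3 that did not pass, NDUFA2, NDUFA6 and NDUFC2, had differences of -1.36, -1.41 and -1.93, and were higher in muscle without sheep 902. Of 28 genes of the tricarboxylic acid cycle and pyruvate dehydrogenase, 22 were higher in muscle. Citrate synthase (CS), its entry step, was at 654, 449, 473 and 509 in liver and 8918, 7855, 6233 and 7422 in muscle (log2 difference -3.87 ± 0.16, limma adjusted p = 8.95e-05). The 1 gene higher in liver was PDP2, a phosphatase that reactivates pyruvate dehydrogenase (3.08). PDK1 (-0.20, limma adjusted p = 0.621) and PDK2 (-1.40, 0.0586), kinases that switch the same complex off, did not pass, but PDK2 was higher in muscle without sheep 902 (-0.79, adjusted p = 0.000307) and in DESeq2 (adjusted p = 0.0222). PDK4, the kinase induced by fasting, was at 1033, 6597, 3209 and 3001 in liver and 13104, 14565, 12764 and 25752 in muscle (log2 difference -2.47 ± 0.46, limma adjusted p = 0.00798), and did not overlap.

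Creatine was split between organs. GATM, the first step of creatine synthesis, was at 749.97, 13429, 14766 and 9009 in liver and 191, 164, 126 and 142 in muscle (log2 difference 5.29 ± 0.86, limma adjusted p = 0.00502). GAMT, the second step, did not pass with all animals (1.67, limma adjusted p = 0.139) and was higher in liver without sheep 902 (2.73, adjusted p = 1.29e-06). The creatine transporter SLC6A8 (-2.81) and the mitochondrial kinase CKMT2 (-5.34) were higher in muscle with CKM. Beside 27.2% and 26.1% over all tested genes, branched-chain amino acid breakdown gave 5 genes of 17 higher in liver and 3 in muscle. Without sheep 902 these were 13 and 3, beside 35.9% and 37.6%, and under scaling to library totals 8 and 1. BCAT2, the first step, which in many mammals is a muscle rather than a liver enzyme, was at 921, 144, 121 and 136 in liver and 76.7, 68.3, 57.5 and 75.2 in muscle (log2 difference 1.64 ± 0.51, limma adjusted p = 0.0437). Liver 902 held the highest BCAT2 value, and without this sheep the difference was 0.99 (adjusted p = 0.00172), while without any 1 of the others the limma adjusted p was 0.077 to 0.095. BCKDHA (-1.51) and its inactivating kinase BCKDK (-1.12) were higher in muscle, though not under scaling to library totals (-0.61 and -0.23), and BCKDHA was not called without sheep 924 or 928 (limma adjusted p = 0.0511 and 0.0586).

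**Figure D5:**
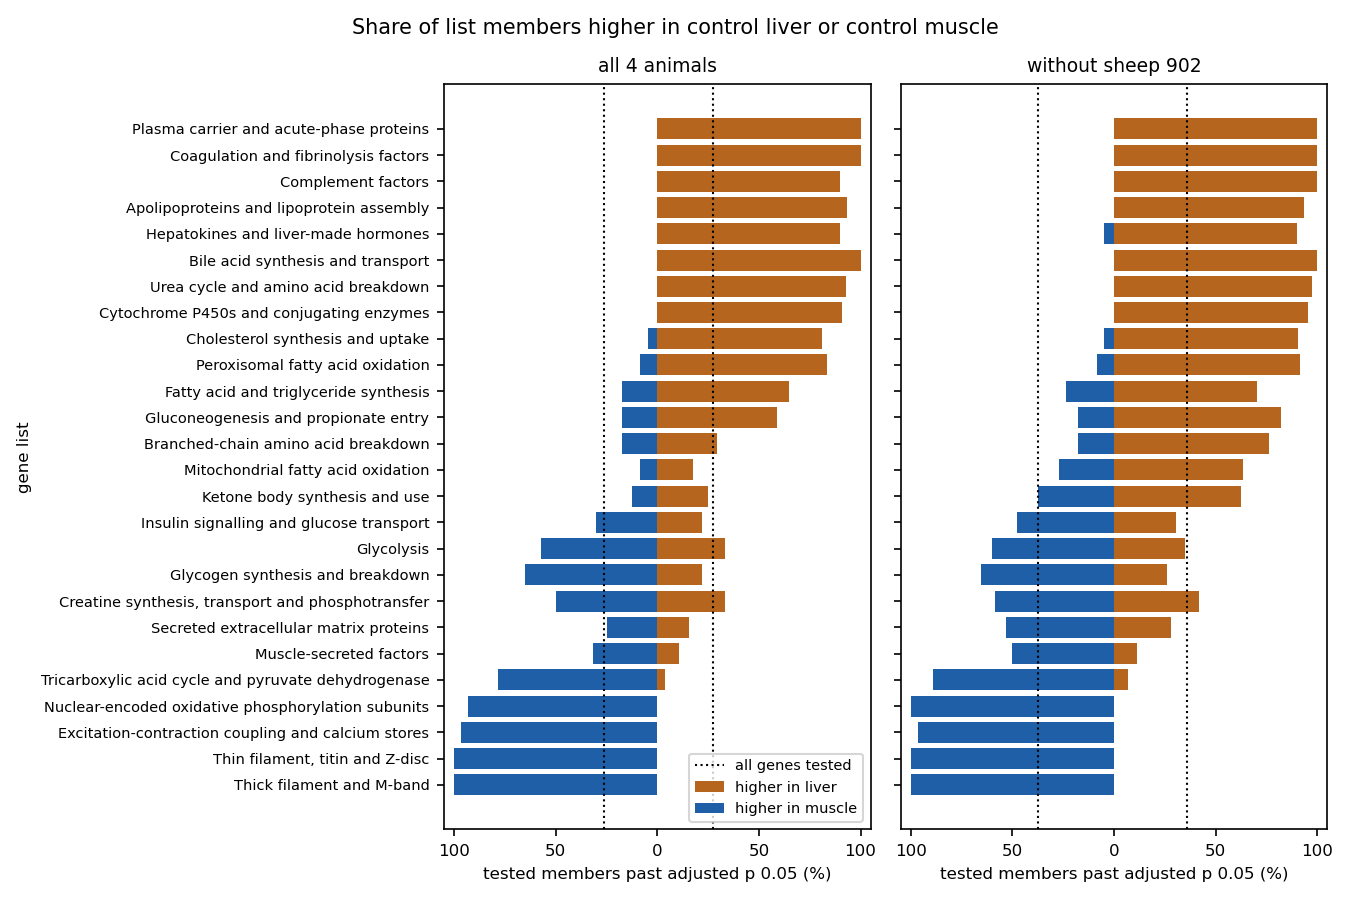
Share of the tested members of each gene list that were higher in liver (orange, to the right) or in muscle (blue, to the left) at an adjusted p of 0.05, with all 4 animals (left panel) and without sheep 902 (right panel). Dotted lines give the share over all tested genes in each direction, 27.2% and 26.1% on the left and 35.9% and 37.6% on the right.

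Secreted plasma proteins were higher in liver with few exceptions. All 27 tested plasma carriers and acute-phase proteins, all 22 coagulation factors, 18 of 20 complement factors and 14 of 15 apolipoprotein and lipoprotein assembly genes were higher in liver, and 0 of them were higher in muscle. Prothrombin (F2) was at 7015, 20349, 19129 and 19590.5 in liver and 149, 91, 81 and 102 in muscle (log2 difference 7.19 ± 0.44, limma adjusted p = 0.000254). APOB, the structural protein of very low density lipoprotein, was at 15159.6, 91552, 98668 and 90970.3 and 1054, 690.2, 651 and 688 (log2 difference 6.30 ± 0.64, limma adjusted p = 0.00116). APOA5, an activator of triglyceride clearance, was at 2523, 24280.3, 34348 and 30106 and 145, 95.2, 78.6 and 80.9 (log2 difference 7.34 ± 0.83, limma adjusted p = 0.00159). Liver 902 was the lowest liver for all 3 but above every muscle. The plasma carrier afamin (AFM) was near level in the 4 livers, at 1658, 1792, 2007 and 1976, against 23.1, 27, 19.9 and 27.8 in muscle (log2 difference 6.20 ± 0.17, limma adjusted p = 3.82e-05). Complement factors that did not pass were CFD, also known as an adipocyte product (2.03, limma adjusted p = 0.0752), and C7 (1.03, 0.303). Both were higher in liver without sheep 902. Phospholipid transfer protein (PLTP) did not pass, at 190.3, 95.6, 124 and 146 in liver and 206, 137, 131 and 118 in muscle (-0.10, limma adjusted p = 0.693; 0.79, adjusted p = 0.0338, under scaling to library totals).

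Hormones made by liver were higher there for 18 of 20 tested genes. FGF21, a fasting hormone, was at 650.1, 129, 374 and 215 in liver and 1.22, 0.843, 2.35 and 0 in muscle (log2 difference 7.22 ± 0.44, limma adjusted p = 0.000254), with 4 reads in muscle as a whole. Insulin-like growth factor 1 (IGF1), the mediator of growth hormone, was at 948, 1006, 3193 and 2913 in liver and 167, 157, 203 and 145 in muscle (log2 difference 3.37 ± 0.37, limma adjusted p = 0.00144). IGF2, which stays expressed after birth in sheep liver, was at 5960.2, 18118, 19349.5 and 17626 and 1579, 1445, 992 and 1299 (log2 difference 3.40 ± 0.42, limma adjusted p = 0.00205). Their binding protein IGFBP1, which rises in fasting, varied among the livers, at 2449.7, 799.5, 2964 and 8579 against 107, 43.8, 34 and 24.5 in muscle (log2 difference 5.86 ± 0.75, limma adjusted p = 0.00232). The activin chain INHBE (7.19) and hepcidin (HAMP, 5.40), the iron hormone, were also liver genes. HFE2 (hemojuvelin), which controls hepcidin, was at 94.2, 1319.7, 1751 and 1371 in liver and 3116, 2876, 2847 and 2697 in muscle (log2 difference -1.96 ± 0.79, limma adjusted p = 0.0873). Its muscle values exceeded every liver, and it passed as a muscle gene without sheep 902 (-0.93, adjusted p = 0.000355). ANGPTL4, a fasting inhibitor of lipoprotein lipase, did not pass (log2 difference 0.07 ± 0.38, limma adjusted p = 0.881; 0.97, adjusted p = 0.0396, under scaling to library totals).

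Factors named as muscle-secreted were less uniform. Of 19 tested, 6 were higher in muscle and 2 in liver, beside 26.1% and 27.2% over all tested genes. The median of the 19 was -0.36, and it changed sign to 0.47 when libraries were scaled to their totals, with 5 higher in either tissue. Myostatin (MSTN), the inhibitor of muscle growth, was at 33.9, 1.38, 0.711 and 0 in liver and 219, 282, 309.8 and 265 in muscle (log2 difference -6.28 ± 0.96, limma adjusted p = 0.00413). FNDC5, the precursor of irisin, was at 13.2, 3.44, 2.84 and 8.05 and 70.6, 34.6, 64.5 and 67 (log2 difference -3.08 ± 0.39, limma adjusted p = 0.0023), and IL15 at 18.8, 25.5, 22.7 and 23.5 and 114, 102, 128 and 92.4 (log2 difference -2.22 ± 0.24, limma adjusted p = 0.00131). MUSTN1 (-8.32), a small nuclear protein of muscle and bone, was also higher in muscle. Decorin (DCN) and SPARC, matrix proteins made by fibroblasts, did not pass (-0.93 and 0.65). Liver 902 had 8389 for DCN, above the muscles at 1649 to 2336, while the other livers were at 439 to 546, and without this sheep DCN was higher in muscle (-1.85, limma adjusted p = 5.4e-06), as was SPARC (-0.29, 0.0281). The 2 listed genes higher in liver were IGF1 and the lymphocyte growth factor IL7 (3.33).

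Secreted matrix proteins gave 5 of 32 genes higher in liver and 8 in muscle, and the median changed sign from 0.40 to -0.57 without sheep 902, when 9 and 17 were called. Scaling to library totals gave 10 and 5. Over all tested genes the shares were 27.2% in liver and 26.1% in muscle, or 35.9% and 37.6% without sheep 902. Fibronectin (FN1) was at 54062, 62734, 68433 and 81241 in liver and 2534, 1619, 2165 and 1803 in muscle (log2 difference 5.04 ± 0.27, limma adjusted p = 0.000176), and the groups did not overlap. COL18A1, the parent of endostatin, was also higher in liver (5.74), and thrombospondin 4 (THBS4, -6.98), the type VI collagen chain COL6A3 (-2.55) and elastin (ELN, -2.33) in muscle.

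Contractile genes were higher in muscle without exception among those tested, 15 of 15 thick filament and 31 of 31 thin filament, titin and Z-disc genes. Median log2 differences were -12.05 and -11.59. Slow troponin C (TNNC1) had 0 reads in the 4 livers and 20658, 28641, 26944 and 31056 in muscle, at least 44586-fold higher. Genes of slow fibres were present beside the fast ones, with the slow regulatory light chain MYL2 at 27044, 35929, 34085 and 41269 and the fast MYLPF at 100060, 83244, 96128 and 99986 in muscle. Some of these genes varied between muscles. Cardiac α-actin (ACTC1), a fetal form in skeletal muscle, was at 131, 2414, 507 and 213 (log2 difference -7.47 ± 1.07, limma adjusted p = 0.00336), and XIRP2 at 29105, 91408, 58362 and 49283. Muscle 908 was the highest for both and muscle 902 the lowest. TRIM63, a ubiquitin ligase that rises when muscle is broken down, was at 4017, 5976, 5591 and 5445 in muscle with 1 liver read.

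Of 29 excitation-contraction coupling and calcium store genes, 28 were higher in muscle, with a median of -8.63 that becomes -8.93 when genes without liver reads are set to their bounds. RYR1, the calcium release channel, was at 96.1, 35.8, 27.7 and 9.4 in liver and 188405, 211047, 216015 and 234171 in muscle (log2 difference -12.69 ± 0.57, limma adjusted p = 0.000113). ATP2A1, the fast calcium pump, was at 3.77, 1.38, 1.42 and 2.01 and 276527, 237847, 223403 and 294270 (log2 difference -16.38 ± 0.19, limma adjusted p = 1.58e-05). Its inhibitor sarcolipin (SLN) was at 17350, 16617, 21738 and 15884 in muscle (log2 difference -13.24 ± 0.35, limma adjusted p = 3.79e-05). Parvalbumin (PVALB), a calcium buffer, had 0 liver reads and varied among muscles, at 667, 59.8, 434 and 194, at least 489-fold higher. CHRNE, a subunit of the adult acetylcholine receptor, was the member that did not pass, at 111, 424, 444 and 468 in liver and 598, 354, 465 and 1156 in muscle (log2 difference -0.88 ± 0.48, limma adjusted p = 0.177). Among genes with a mean of at least 10 in the tissue that has reads, 74 had reads in liver and none among the 88204146 muscle reads, and 92 had reads in muscle and none among the 60159464 liver reads.

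Insulin signalling and glucose uptake genes went both ways. Of 23 tested, 5 were higher in liver, 7 in muscle and 11 did not pass, shares near the background of 27.2% and 26.1%. Without sheep 902 the counts were 7 and 11. The list median of -0.41 changed sign to 0.48 under scaling to library totals, where 10 were higher in liver and 4 in muscle. The insulin receptor (INSR) was at 1528, 3864, 3967 and 3402 in liver and 2377, 3266, 3069.7 and 3181 in muscle (log2 difference 0.02 ± 0.23, limma adjusted p = 0.951). It was called higher in liver under scaling to library totals (0.91, adjusted p = 0.00738) and, with neither the block nor the 902 liver, at 0.34 (adjusted p = 0.0303). The glucagon receptor (GCGR) was at 1339.8, 2577, 2762 and 2702 in liver and 73.1, 58.2, 22.3 and 31.9 in muscle (log2 difference 5.72 ± 0.47, limma adjusted p = 0.0006). INSR overlapped between tissues and GCGR did not. Downstream, AKT2, the main kinase of insulin action in both tissues, differed by -0.13 (limma adjusted p = 0.695; 0.77, adjusted p = 0.0215, under scaling to library totals). The docking proteins IRS1 (-1.25) and IRS2 (-1.19) were higher in muscle, though neither was called under that scaling (-0.35 and -0.30). Without any 1 of sheep 908, 924 and 928 the IRS1 call was lost (limma adjusted p 0.0601 to 0.0829), and without 902 its difference was -0.83. TBC1D4, which holds SLC2A4 vesicles inside the cell, was at 217, 114, 89.6 and 89.9 in liver and 956, 1111, 1329.5 and 1222 in muscle (log2 difference -3.26 ± 0.33, limma adjusted p = 0.0011). The receptor-binding adaptors parted, GRB14 higher in liver (4.70) and GRB10 in muscle (-2.28). The growth hormone receptor (GHR) did not pass with all animals (log2 difference 0.14 ± 0.45, limma adjusted p = 0.807) and was higher in liver without sheep 902 (0.64, adjusted p = 0.0355).

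Other cell types were visible in both tissues. The counts below stand beside shares over all tested genes of 27.2% higher in liver and 26.1% in muscle. Without sheep 902 those shares were 35.9% and 37.6%. Of 13 macrophage and Kupffer cell markers, 12 were higher in liver and 0 in muscle. CD14 was at 1909, 2161, 1686 and 1752 in liver and 141, 147, 175 and 132 in muscle (log2 difference 3.65 ± 0.16, limma adjusted p = 0.000115). Endothelial markers went both ways, 5 of 14 higher in liver and 5 in muscle, and their median of -0.12 changed sign without sheep 902 (0.07) and under scaling to library totals (0.75). STAB2, a scavenger receptor of liver sinusoids, was at 1004, 3394, 3931 and 3476 in liver and 36.5, 31.2, 37.6 and 35.2 in muscle (log2 difference 6.18 ± 0.39, limma adjusted p = 0.000274). VWF, the clotting carrier of continuous endothelium, was at 571, 638, 975 and 458 in liver and 9237, 7476, 9332 and 8367 in muscle (log2 difference -3.75 ± 0.21, limma adjusted p = 0.000221). Neither gene overlapped between tissues. Fibroblast and stellate cell markers gave 4 of 16 higher in liver and 3 in muscle, against 4 and 8 without sheep 902, and their median changed sign from 0.46 to -0.61. Smooth muscle markers gave 2 of 8 in each direction, with a median of -0.54 that was 0.35 under scaling to library totals. Without sheep 902, 2 were higher in liver and 5 in muscle (median -1.06). Lymphocyte markers gave 1 of 10 in each direction, but 8 in liver and 1 in muscle without sheep 902 and 5 and 1 under scaling to library totals. Bile duct markers were higher in liver for 6 of 11 genes, led by claudin 4 (CLDN4, 6.67), and in muscle for 1. SPP1 was at 11527, 31.7, 8.53 and 48.3 in liver and 23.1, 25.3, 54 and 94 in muscle, high only in liver 902. Schwann cell markers were higher in muscle for 3 of 6 (6 of 7 without sheep 902, 1 under scaling to library totals) and satellite cell markers for 4 of 5. The other satellite cell marker was called higher in liver, at 3.83.

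Adipocyte markers were higher in muscle for 6 of 7, with summed counts of 173 to 284 in liver and 6299 to 7764 in muscle. Adiponectin (ADIPOQ) was at 9.42, 2.75, 0.711 and 2.68 in liver and 782, 524, 426 and 652 in muscle (log2 difference -7.20 ± 0.34, limma adjusted p = 0.000134). Leptin (LEP), also a hormone of fat cells, was at 18.3, 30.3, 12.9 and 33.5 in muscle with 1 liver read. The part of fat cells in other muscle results was not tested. No erythroid marker passed the filter on low values.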

How the data were processed

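RNA of 8 liver and 8 muscle samples was depleted of ribosomal RNA and made into libraries with a low-input kit, per the labels' protocols. The authors deposited 1 table of normalized counts for the 16 libraries, a signal on a scale of counts divided by a size factor. The submitters' processing notes name FastQC, Trimmomatic and DESeq2 1.24.0. Aligner, counting program, annotation, build and strand setting are each not given in the sources used here, so values of near-identical gene copies and of overlapping or antisense genes are uncertain.

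Whole reads were recovered by dividing each library by its smallest step, which gave whole numbers within 0.1 for at least 99.99% of values. Gene names were matched to the RefSeq table of assembly ARS-UI_Ramb_v3.0, which held 22710 of 28524. List members were looked up by name or alias in the authors' table, and those not found were not analysed here. Found were 22 of 41 cytochrome P450 and conjugating genes, 47 of 66 oxidative phosphorylation subunits and 11 of 17 bile acid genes. Differences were fitted on the log2(value + 1) scale in R 4.3.3 with limma 3.58.1, with animal as a block and a mean-variance trend. Benjamini-Hochberg adjustment covered all genes with a mean of at least 10. The fit was checked on simulated data, where it missed small differences and also part of the large ones. A gene that did not pass may therefore still differ severalfold. The pairing comes from the labels, since liver and muscle with 1 number are from 1 ewe. Deviations of a liver and its own muscle correlated at -0.11 to 0.02. Each liver correlated more with the muscle of some other animal, at 0.0575 to 0.121, so the values themselves did not show the pairing. Recovered reads were tested with edgeR 4.0.16 and DESeq2 1.42.0 as alternatives, beside other pseudocounts, filters, scalings and array weights. Intervals and bounds cover counting error only, and reads had no molecular identifiers.

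Members and gene lists were chosen with earlier results of these data known. Named genes were the 6 markers, all isoform pairs, all listed transcription factors, hormones and insulin genes, and up to 5 members per direction with the smallest p, and those not passing where at most 5, in each other list. The 10 most different genes per direction were added. COL1A1, PDK4, PVALB and RYR1 were chosen after their values were seen. A few genes are not reported here, and counts over lists include them.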

Additional observations from a re-analysis of the deposited data

Results flagged for a closer look

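Within the 4 livers or the 4 muscles, 1 library lay far from the other 3 for 92 of 396 combinations of a named gene and a tissue. The number in parentheses is its gap to the nearest other library as a share of the group's range on the log2(value + 1) scale. For 4 normally distributed values 0.83 is the 95% critical value, which chance alone exceeds in about 1 in 20 groups. A group with reads in only 1 library always scores 1, so that rate does not hold for low counts. Liver 902 was the library in 72 of the 92 combinations.

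Liver 902 was low for the transcription factors HNF4A (0.839), FOXA1 (0.849), FOXA3 (0.945), GATA4 (0.861), NR1H3 (0.88), RXRA (0.941), ESRRA (0.856), PPARGC1A (0.835) and KLF15 (0.93). Among glucose, glycogen and ketone genes it was low for FBP1 (0.901), G6PC1 (0.96), PCCB (0.94), MCEE (0.873), SLC25A11 (0.874), GPT (0.95), ENO1 (0.853) and PYGL (0.859). Among lipid genes it was low for HADHB (0.837), ACOX2 (0.958) and ABCB4 (0.948). Among amino acid, detoxification and creatine genes it was low for TDO2 (0.884), BCKDHA (0.916), CYP2E1 (0.864), ALDH2 (0.947), GATM (0.834), GAMT (0.929) and SLC6A8 (0.88). Among mitochondrial genes it was low for PDK2 (0.95), NDUFA2 (0.845) and NDUFC2 (0.967). Among secreted and matrix proteins it was low for APOA5 (0.867), APOB (0.957), ALB (0.979), TTR (0.957), F2 (0.942), C7 (0.912), CFD (0.917), IGF2 (0.921), HAMP (0.903), HFE2 (0.903) and COL18A1 (0.877). Among contractile and calcium genes it was low for CHRNE (0.931). Among insulin and glucose transport genes it was low for INSR (0.839), IRS1 (0.831), AKT2 (0.898), SLC2A2 (0.922), SLC2A4 (0.949) and GCGR (0.904). Among other genes it was low for STAB2 (0.892), EEF1A1 (0.894), CES3 (0.875) and GOLT1A (0.865).

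The same library was high for the transcription factors SIX4 (0.935), TEAD1 (0.854), HOXA9 (1), HOXA10 (0.91), HOXA11 (1), HOXD10 (1) and HOXD11 (1). It was high among glucose, glycogen and ketone genes for HK2 (0.884) and PHKA1 (0.891). It was high among lipid genes for ME1 (0.951). It was high among amino acid, detoxification and creatine genes for BCAT2 (0.912). It was high among secreted and matrix proteins for SPARC (0.999), DCN (0.926) and COL1A1 (0.832). It was high among contractile and calcium genes for ACTA1 (0.854) and TTN (0.864). It held the only liver reads, 1 or 2 in number, of MYOG (1), PITX1 (1), MYL2 (1) and XIRP2 (1). Other livers held the only liver read of MYOD1 (sheep 908, 1), MYF5 (sheep 924, 1), PPP1R3A (sheep 908, 1), AMPD1 (sheep 924, 1), TRIM63 (sheep 924, 1) and LEP (sheep 928, 1). Among the other livers, a high value was seen for ELN in sheep 928 (0.882).

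In muscle, that of sheep 902 was the high library for ONECUT2 (0.849), PC (0.98), G6PC1 (0.976), CPT1B (0.847), FTCD (0.972), APOB (0.879), ALB (0.898) and PROC (0.929). It was the low one for CEBPB (0.977) and PHKA2 (0.882). Other muscles stood apart for HAMP (high in sheep 928, 0.905), FNDC5 (low in sheep 908, 0.873) and IRS2 (high in sheep 908, 0.869). Most of the genes high in muscle 902 are liver genes, and the cause of these values was not tested.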

How the results depend on the processing

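Leaving out sheep 902 raised the number of genes called between control liver and muscle, and leaving out any other sheep lowered it. The counts without 1 sheep ran from 5687 to 11391 against 8482 with all 4. For the BPA ewes they ran from 7613 to 10751 against 9757, and for isoform pairs positive in every animal from 28 to 29. Without the replicate block, 9415 and 9988 genes were called. Other pseudocounts, filters, scalings and tools gave 7044 to 11784. A fit without the block and without the 902 liver alone, chosen after seeing the data, gave 11773. Of 198 named genes, 150 kept their side of the threshold under each of up to 16 alternatives in which they were tested (183 with a mean of at least 50), and 24 gained a call in at least 1. A call was lost without 1 sheep for 15, ALB and TTR among them, at adjusted p values of up to 0.133 in limma. ACTB was lost without sheep 924 or 928 and HOXA10 without 908, 924 or 928. A call opposite in sign to an uncalled difference was seen for 5. Under scaling to library totals these were PPARGC1A (0.85), PLTP (0.79) and AKT2 (0.77), with array weights HOXA11 (-2.06), and for SPARC the values without 1 sheep ran from -0.29 to 1.0, and without the block and the 902 liver it was -0.35. The cause of these changes was not tested. Depth limits low genes in liver most, with 4391896 reads in liver 902.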

Other observations

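Among the 39 genes with a symbol, a mean of at least 10 in muscle and no read in the 4 livers, several not described above belong to known muscle functions. They were picked after their values were seen, and each bound sets liver to 3 reads over the group. TRIM54, a microtubule-associated Z-disc protein, was at 4869 to 5791 normalized counts in muscle, at least 8647-fold higher than in liver. ASB15, a muscle ubiquitin ligase adaptor, was at 792 to 1192 (at least 1722-fold), and STRIT1, a micropeptide that activates the calcium pump, at 508 to 668 (at least 1001-fold). TRARG1, a regulator of SLC2A4 trafficking, was at 126 to 249 (at least 329.5-fold). AQP4, the water channel of fast fibres, was at 69.4 to 92.7 (at least 134-fold), and FGF6, a muscle growth factor, at 64.5 to 122 (at least 143-fold). DOK7, which organizes the neuromuscular junction, was at 121 to 162 (at least 222-fold). MYH8, the perinatal myosin heavy chain, was at 62.1 to 125 (at least 156-fold). The homeobox factor SIX2 was at 319 to 615 and EBF2, a factor known from brown fat precursors, at 204 to 253.

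The 34 genes with a symbol, a mean of at least 10 in liver and no read in muscle included several seen almost only in liver 902, also picked after their values were seen. SCNN1G, a sodium channel subunit, was at 0 to 288 over the 4 livers, the water channel AQP5 at 0 to 90.4, the recombinase RAG1 at 0 to 171 and the epithelial gene TMEM92 at 0 to 234. Others were spread over the livers, such as KRT78, a keratin, at 19.5 to 110.2, and MORC1 at 13.2 to 41.2. These values were not tested for a cause.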
